A study of Mus musculus with 12 samples.

Results

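The genes described here make serine, proline and asparagine, together with Atf4, the transcription factor known for driving them. They are Phgdh, Psat1 and Psph of serine synthesis, Shmt2 and Mthfd2 of mitochondrial one-carbon metabolism, Aldh18a1 and Pycr1 of proline synthesis, Asns of asparagine synthesis, and Atf4. The 9 genes were chosen by name, as members of these pathways, out of 21556 genes in the deposited count table. All 9 passed the filter on low expression in every comparison. Abdominal skin of WT mice (C57BL/6) was the source of one set of primary fibroblasts, and the other set came from Nox4 KO mice (B6.129-Nox4tm1Kkr/J), in which the gene of the hydrogen peroxide-forming enzyme NOX4 is disrupted by targeting in every cell of the animal. The age of the animals that gave the cells was not stated in the sources used here. All cultures, controls included, were starved for 24 h, and the stimulated ones then received 10 ng/ml TGF-β2 for 24 h. The 4 groups, WT control, WT with TGF-β2, Nox4 KO control and Nox4 KO with TGF-β2, held 3 replicates each, and how the replicates relate to animals or cultures was not stated.

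Serine is made from a glycolytic intermediate by PHGDH, PSAT1 and PSPH in turn, and SHMT2 splits it into glycine and a one-carbon unit that MTHFD2 passes on inside mitochondria. Proline is made from glutamate by the product of Aldh18a1 and then by PYCR1, and asparagine is made from aspartate by ASNS. ATF4 is made when translation is slowed by phosphorylation of eIF2, as in amino acid shortage, and it switches on genes of amino acid synthesis, uptake and tRNA charging. Fibroblasts that turn into myofibroblasts under TGF-β make much collagen, a protein rich in glycine and proline. Because ATF4 is controlled to a large part at translation, the level of its mRNA does not measure its protein.

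The regulatory letters are shown first, because the genes are grouped here by a shared regulator. ATF4 is known to bind, with C/EBP partners, a composite element written here as TGATGNAA, and E-boxes with the letters CACGTG are bound by MYC and related factors. RefSeq promoters of GRCm38.p6, each from 250 bases before to 50 bases after a start site, were searched on both strands. The 9 genes have 10 promoters in that table. TGATGNAA was found in 2 of the 10, those of Asns and Pycr1, and in 3.97% of all 32851 promoters. CACGTG was found in 1 of the 10, that of Aldh18a1, and in 7.15% of all. The letters TTGCATCA, a stricter form of the composite element that reads TGATGCAA on the other strand and so lies within TGATGNAA, were found in 1 of the 10, that of Pycr1, and in 0.895% of all. The stretches around these matches follow, 5′ to 3′ on the strand of the gene, with the matched letters in capitals.
Pycr1, chr11:120643814-120643881, minus strand: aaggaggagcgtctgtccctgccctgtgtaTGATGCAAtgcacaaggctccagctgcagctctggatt
Asns, chr6:7693214-7693243, minus strand: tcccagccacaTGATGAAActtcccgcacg
Aldh18a1, chr19:40588487-40588552, minus strand: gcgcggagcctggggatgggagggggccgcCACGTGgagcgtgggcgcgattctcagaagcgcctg
The Pycr1 match begins 103 bases, the Aldh18a1 match 59 bases and the Asns match 23 bases before the RefSeq start site. The GENCODE model of Asns starts further upstream and holds its match. These are matches of letters only, and binding was not measured.

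The genes lie on 7 chromosomes of GRCm38. Phgdh (ENSMUSG00000053398) lies on chromosome 3 at 98313170-98339990, Psat1 (ENSMUSG00000024640) on chromosome 19 at 15904678-15947337 and Psph (ENSMUSG00000029446) on chromosome 5 at 129765558-129787449. Shmt2 (ENSMUSG00000025403) spans 127517123-127522444 of chromosome 10, and Mthfd2 (ENSMUSG00000005667) spans 83305691-83325908 of chromosome 6. Aldh18a1 (ENSMUSG00000025007) is found at 40550257-40588463 of chromosome 19 and Pycr1 (ENSMUSG00000025140) at 120635712-120643769 of chromosome 11. Asns (ENSMUSG00000029752) covers 7675169-7693254 of chromosome 6 and Atf4 (ENSMUSG00000042406) 80255184-80257541 of chromosome 15. Atf4 is on the plus strand and the other 8 are on the minus strand. The counted exons of Shmt2 share 32 bases with Ndufa4l2 on the opposite strand, and whether the counting used strand was not stated. No other member overlaps a counted gene.

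The 12 libraries held 35118344 to 43796260 counted reads each, and the least counted member had 1446 reads in its lowest library. Nox4 was still counted in the Nox4 KO libraries, at 0.636 to 1.399 RPKM (counted reads scaled to exon length and library total) in controls and 4.39 to 6.85 RPKM with TGF-β2, against 1.31 to 2.42 and 8.56 to 16.3 RPKM in WT. Since reads were summed over each gene, those of the targeted exons and of the other exons cannot be told apart. All 10 fibroblast markers were above 1 RPKM in every group, none of 8 keratinocyte markers was, and 5 or 6 of 8 macrophage markers were, with a summed level between 14.2 and 123 RPKM per library. In these bulk samples, fewer cells of a type and less RNA per cell cannot be told apart. The summed level of 6 skeletal muscle markers was 42.0 to 110 RPKM in control libraries and 256 to 615 RPKM with TGF-β2, with 2 of the 6, Des and Acta1, above 1 RPKM and the defining factors Myod1 and Myog at 0 in all stimulated libraries. Acta1, the skeletal actin, rose by 2.71 in WT and 2.33 in Nox4 KO on the log2 scale, while Des had values of -0.41 and -0.61 and did not pass. Of the fibroblast markers, Pdgfra fell by 3.35 and by 2.98. The summed level of 6 adipocyte markers was 1.59 to 7.86 RPKM in control libraries and 0.808 to 2.43 RPKM with TGF-β2, with Cidec at 0 in all stimulated libraries, and Fabp4 fell by 2.07 in WT (adjusted p = 0.0162 in edgeR) with a value of -2.29 in Nox4 KO (adjusted p = 0.0708 in edgeR). The 6 macrophage markers tested all had values below 0, with medians of -0.40 in WT and -0.44 in Nox4 KO, and 0 passed. The part of these marker genes in the results was not tested. The second stimulated WT library stood apart. It held the highest RPKM of its group for all 9 members, where 51.1% of 10890 genes were highest there, and its differences from the other 2 libraries of its group, as a chi-square per gene, were 144 and 178 against 34.5 between those 2. The third replicate stood apart in the other groups too. Its values were 61.9 and 76.2 against 17.3 in WT control, and 109 and 82.8 against 32.8 in Nox4 KO control. In Nox4 KO with TGF-β2 they were 144 and 96.1 against 29.9. WT control replicate 3 was lowest of its group for 8 members (28.2% of genes), and stimulated Nox4 KO replicate 1 was highest for 8 (31% of genes). Values without the second stimulated WT library are given beside the WT results it moved most.

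**Figure D1:**
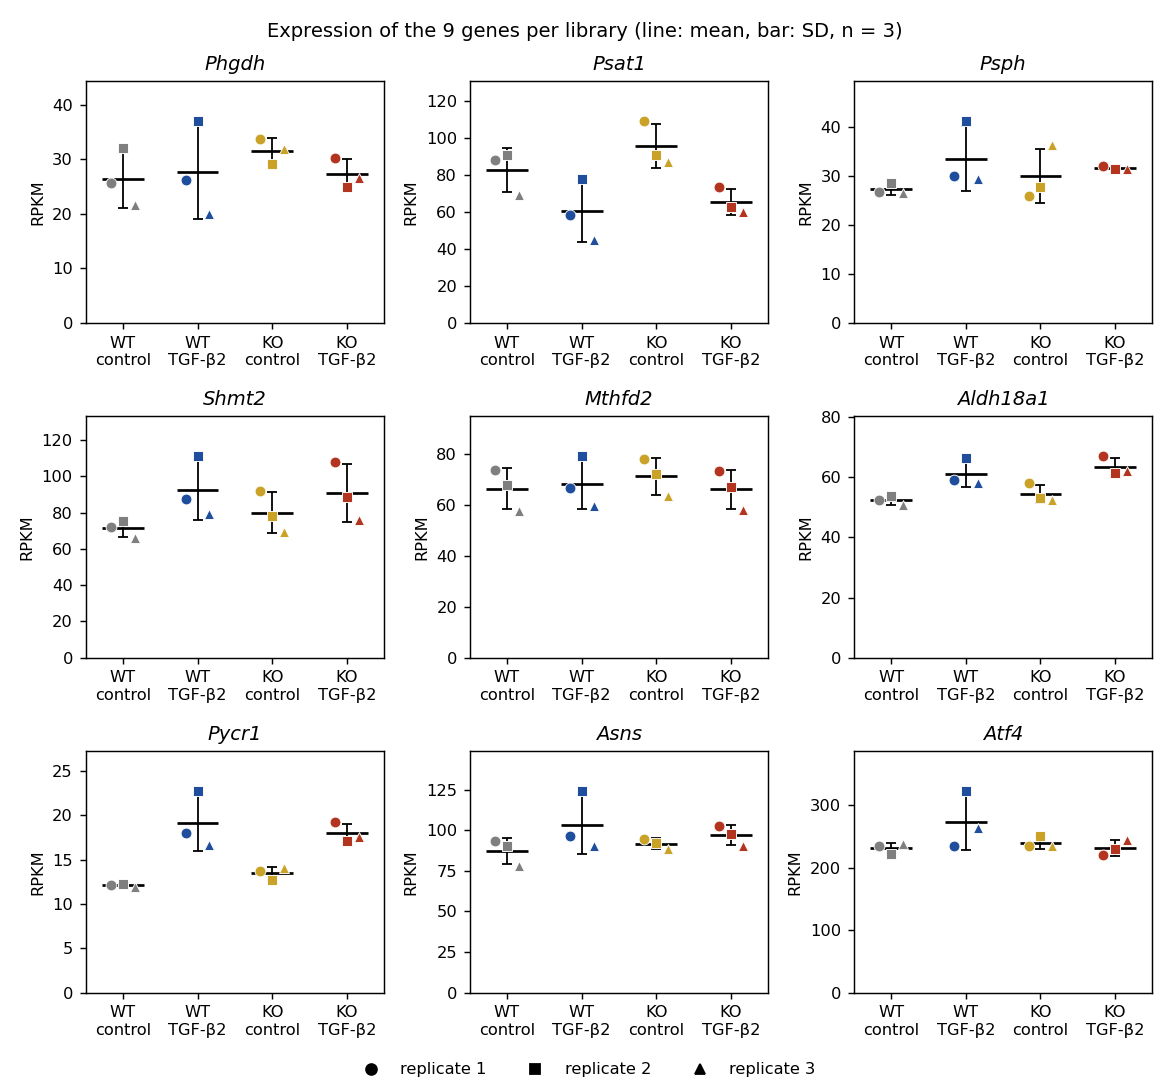
RPKM of each of the 9 genes (vertical axes, from 0, scaled per gene) in the 4 groups (horizontal axes), where each point is a library, its shape the replicate number, the line the mean and the bar the SD of 3 libraries. The stimulated libraries of Pycr1 lie above the control libraries in both genotypes, and the square of WT with TGF-β2, replicate 2, is the highest of its group in each panel.

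All 9 genes were well expressed in skin fibroblasts before stimulation. Per length, Atf4 had the highest level in each group, and in WT control its 231.6 ± 8.5 RPKM (SD, n = 3) was apart from all others. Asns (87.3 ± 8.0 RPKM), Psat1 (82.7 ± 11.9), Shmt2 (71.3 ± 4.7) and Mthfd2 (66.3 ± 8.0) followed in WT control, and each of these overlapped its neighbour in the order. Aldh18a1 stood alone in the middle at 52.3 ± 1.4 RPKM. Psph (27.2 ± 1.1 RPKM) and Phgdh (26.4 ± 5.3) overlapped, and Pycr1 was lowest at 12.1 ± 0.19 RPKM. So PHGDH, the first enzyme of serine synthesis, had a lower transcript level than PSAT1, the enzyme after it, and PYCR1 a lower one than the enzyme that supplies it. The order changed with TGF-β2 at Psat1, which went from rank 3 in WT control to rank 6, and from rank 2 in Nox4 KO control to rank 5. In both stimulated groups its libraries overlapped those of the neighbours around it in rank, except for Psph below it in WT. These levels rest on the lengths of protein-coding transcripts. With all transcripts as length, Psph was at 11.6 RPKM and Pycr1 at 11.7 RPKM in WT control, and Aldh18a1 (46.6 RPKM) was above Mthfd2 (43.4 RPKM).

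Related genes that act outside these pathways' main step were named after their values were seen. Shmt1, the cytosolic relative of Shmt2, was at 1.95 ± 0.38 RPKM in WT control, and the mean of Shmt2 was 36.6 times that. Mthfd2l, a relative of Mthfd2, was at 2.76 ± 0.29 RPKM, and the mean of Mthfd2 was 24.0 times that. For proline, Pycrl, a relative of Pycr1, was higher than Pycr1 in WT control, at 19.4 ± 2.0 RPKM.

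In WT fibroblasts, TGF-β2 raised Pycr1, the last enzyme of proline synthesis, and no other gene of the 9 passed the test in either direction. Of 10743 genes tested, 22.9% passed, 10.6% of them all as higher and 12.3% as lower, so 1 member of 9 is a share near the background of higher genes. To pass, a gene needed an adjusted p-value (Benjamini-Hochberg) under 0.05 in edgeR's quasi-likelihood test, at any fold change. None of the 9 changed 2-fold, where 2.64% of all genes passed with at least that rise and 5.1% with at least that fall. The log2 fold change was positive for 8 of the 9, and their median was 0.28, where the median of all genes tested was -0.0027. Without the second stimulated WT library 6 of the 9 were positive, with a median of 0.16, and without WT control replicate 3 also 6 were, with a median of 0.24. The stimulated libraries lay all above the control libraries for 4 members, Psph, Shmt2, Aldh18a1 and Pycr1, as they did for 20.3% of all genes tested, and all below for 0 members, where 24.9% of all genes did so.

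The Nox4 KO fibroblasts, tested on their own libraries without the replicate number in the fit, raised the pair of proline genes and lowered Psat1. Of 10809 genes tested, 30.3% passed, with 15.2% higher and 15% lower, or 1644 and 1626 genes. With library size alone as the scaling the split was 1044 higher and 2135 lower. Among the 9 members, 2 were higher and 1 was lower, none of them by 2-fold (2.22% of all genes passed with such a rise and 4.6% with such a fall). Together these 3 of 9 are a share near the 30.3% of all genes that passed. The numbers of the Nox4 KO libraries paired stimulated with control samples, as described with the methods, and a fit with the replicate number as a block gave 4 members higher, where 25.1% of all genes were, and 1 lower, where 28.8% were. The members added by the block were Shmt2 and Asns. The median log2 fold change was 0.16, against -0.014 over all genes tested, and it was 0.08 with library size alone and 0.08 without Nox4 KO control replicate 1. Libraries did not overlap for 3 members, 2 higher (17% of all genes) and 1 lower (31.5% of all genes).

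**Figure D2:**
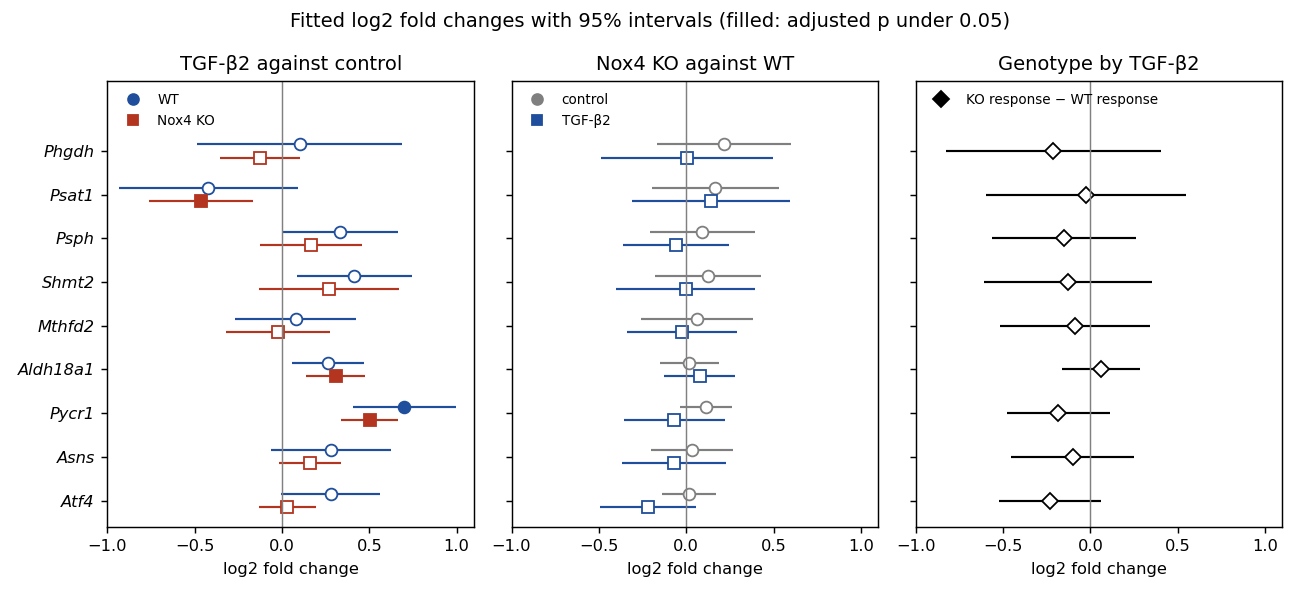
Log2 fold changes (horizontal axes) with 95% intervals for the 9 genes (vertical axis) from edgeR, for TGF-β2 against control in each genotype (left), Nox4 KO against WT in each condition (middle) and the difference of both responses (right), with filled symbols where the adjusted p-value was under 0.05. Filled symbols appear in the left panel alone, at Pycr1 in WT and at Psat1, Aldh18a1 and Pycr1 in Nox4 KO.

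Proline synthesis moved most evenly. Pycr1, which reduces pyrroline-5-carboxylate to proline, had 12.2, 12.3 and 11.9 RPKM in WT control and 18.1, 22.8 and 16.7 RPKM in WT with TGF-β2. Its levels in Nox4 KO were 13.8, 12.7 and 14.0 RPKM in control and 19.2, 17.1 and 17.6 RPKM with TGF-β2. All 6 stimulated libraries lay above all 6 controls, across genotypes as well. Pycr1 rose on the log2 scale by 0.70 (SE 0.12, adjusted p = 0.00938 in edgeR) in WT and 0.50 (SE 0.07, adjusted p = 0.00569 in edgeR) in Nox4 KO, which are 1.62-fold and 1.42-fold. It passed in both genotypes without any of the libraries in turn, and without the second stimulated WT library its WT value was 0.57.

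Aldh18a1, whose product makes pyrroline-5-carboxylate from glutamate, had 52.3, 53.8 and 50.9 RPKM in WT control and 59.1, 66.3 and 58.0 RPKM with TGF-β2. In Nox4 KO it had 57.9, 53.0 and 52.3 RPKM in control and 66.9, 61.5 and 62.1 RPKM when stimulated. The groups did not overlap within either genotype, and the change was small in both. On the log2 scale it was 0.26 in WT (SE 0.09), where it missed the threshold at an adjusted p of 0.0710 in edgeR, and 0.31 in Nox4 KO (SE 0.07, adjusted p = 0.0227 in edgeR). The Nox4 KO value lost its call without control replicate 2 or 3 or stimulated replicate 1 or 2, with adjusted p-values of 0.0520 to 0.0768 in edgeR and values of 0.27 to 0.32. In WT, DESeq2 (adjusted p = 0.0136) and a fit on all 12 libraries in edgeR (adjusted p = 0.0229) made the call.

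Pycrl rose in WT by 0.44 on the log2 scale (SE 0.12, adjusted p = 0.0458 in edgeR), and its value in Nox4 KO was 0.19 (adjusted p = 0.0657 in edgeR).

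Within serine synthesis the 3 steps did not move together. Phgdh, which oxidises 3-phosphoglycerate and opens the pathway, had 25.6, 32.1 and 21.6 RPKM in WT control and 26.2, 37.0 and 20.0 RPKM with TGF-β2. Its Nox4 KO libraries had 33.8, 29.1 and 31.9 RPKM in control and 30.3, 24.8 and 26.6 RPKM after stimulation. Replicates differed more than the groups did, and the libraries overlapped in both genotypes. In Nox4 KO each stimulated library was below the control library of its number, and Phgdh passed there under none of the alternatives. The fitted log2 fold change was 0.10 in WT (SE 0.25, 95% interval -0.49 to 0.69), which became -0.14 without the second stimulated library, and it was -0.13 in Nox4 KO (SE 0.09, 95% interval -0.36 to 0.10).

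Psat1, the aminotransferase of the second step, was the member that went down. It had 88.3, 90.9 and 69.0 RPKM in WT control and 58.3, 77.9 and 44.8 RPKM with TGF-β2, so that the second stimulated library overlapped the controls. In Nox4 KO it had 108.9, 90.7 and 87.1 RPKM in control and 73.5, 62.4 and 60.2 RPKM with TGF-β2, without overlap. It fell in Nox4 KO by 0.46 on the log2 scale (SE 0.12, adjusted p = 0.0349 in edgeR), or 1.38-fold, and the WT value was -0.42 (SE 0.21, adjusted p = 0.198 in edgeR). The Nox4 KO call was lost without control replicate 1 or 2 or stimulated replicate 2 or 3, with values of -0.49 to -0.35 and adjusted p-values of 0.0724 to 0.124 in edgeR, and also in the fit on all 12 libraries (adjusted p = 0.108 in edgeR). Without the second stimulated library the WT value was -0.63 with an adjusted p of 0.0553 in edgeR.

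Psph, the phosphatase that releases free serine, went the other way from Psat1 in its values. Its WT libraries had 26.7, 28.5 and 26.5 RPKM in control and 30.03, 41.1 and 29.3 RPKM with TGF-β2, without overlap, and its Nox4 KO libraries 25.8, 27.7 and 36.2 RPKM and 32.0, 31.3 and 31.4 RPKM. Nox4 KO control replicate 3 was above all stimulated ones of its genotype. Its log2 fold change was 0.33 in WT (SE 0.14, adjusted p = 0.130 in edgeR), or 0.18 without the second stimulated library, and 0.17 in Nox4 KO (SE 0.12, adjusted p = 0.325 in edgeR). Without Nox4 KO control replicate 3, Psph rose there by 0.31 (adjusted p = 0.0273 in edgeR).

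Mitochondrial serine use gave 1 gene with a higher value and 1 near 0. Shmt2 had 72.1, 75.5 and 66.2 RPKM in WT control and 87.8, 111.1 and 79.1 RPKM with TGF-β2, and 92.1, 78.0 and 69.5 RPKM and 107.7, 88.7 and 75.9 RPKM in Nox4 KO. Each stimulated Nox4 KO library was above the control library of the same number, although the groups overlapped. The log2 fold change was 0.41 in WT (SE 0.14, adjusted p = 0.0737 in edgeR), or 0.28 without the second stimulated library, and 0.27 in Nox4 KO (SE 0.16, adjusted p = 0.254 in edgeR). With the replicate block, Shmt2 rose in Nox4 KO by 0.27 (SE 0.04, adjusted p = 0.00474 in edgeR). DESeq2 called the WT value (adjusted p = 0.0251), as did edgeR without stimulated replicate 3 (adjusted p = 0.0397).

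Mthfd2, which carries the one-carbon unit towards formate, had 73.5, 67.7 and 57.8 RPKM in WT control and 66.5, 79.1 and 59.4 RPKM with TGF-β2. Its levels in Nox4 KO were 78.0, 72.3 and 63.5 RPKM in control and 73.2, 67.1 and 57.8 RPKM with TGF-β2. The groups overlapped in both genotypes. The log2 fold change was 0.08 in WT (95% interval -0.27 to 0.42) and -0.02 in Nox4 KO (95% interval -0.32 to 0.27), and the WT value was -0.02 without the second stimulated library.

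Asns, which makes asparagine with nitrogen from glutamine, had 93.3, 90.4 and 78.1 RPKM in WT control and 96.2, 124.1 and 90.1 RPKM with TGF-β2. In Nox4 KO it had 94.7, 92.4 and 88.4 RPKM in control and 102.3, 98.0 and 90.2 RPKM with TGF-β2, each above the control library of its number. As a log2 fold change this was 0.28 in WT (SE 0.14, adjusted p = 0.204 in edgeR), or 0.15 without the second stimulated library, and 0.16 in Nox4 KO (SE 0.07, adjusted p = 0.139 in edgeR). With the replicate block, Asns rose in Nox4 KO by 0.16 (SE 0.04, adjusted p = 0.0226 in edgeR).

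Atf4 itself had 235.4, 222.0 and 237.6 RPKM in WT control and 234.9, 322.8 and 264.1 RPKM with TGF-β2. Its Nox4 KO libraries had 234.9, 251.6 and 234.5 RPKM in control and 220.1, 230.0 and 244.5 RPKM with TGF-β2. The WT spread after stimulation lay mostly in the second library, and the Nox4 KO groups overlapped throughout. The log2 fold change was 0.28 in WT (SE 0.12, adjusted p = 0.138 in edgeR), which is 0.16 without the second stimulated library, and 0.03 in Nox4 KO (SE 0.07, 95% interval -0.13 to 0.19).

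Ratios between 2 genes of 1 library do not depend on how libraries are scaled, and 6 of them were computed, for pairs chosen after their values were seen. The ratio of Pycr1 to Psat1 was 0.135 to 0.172 in WT control and 0.292 to 0.372 in WT with TGF-β2, and 0.126 to 0.161 and 0.262 to 0.292 in Nox4 KO. This pair joins the member with the largest rise and the one with the largest fall, so its separation between conditions was fixed by that choice. Psat1 to Phgdh was 2.83 to 3.45 in WT control and 2.11 to 2.24 with TGF-β2, and 2.73 to 3.22 and 2.26 to 2.51 in Nox4 KO. This pair too holds the member with the largest fall, so its lower ratio after stimulation was in part set by that choice. Asns to Atf4, a target set against its regulator, overlapped between conditions, at 0.329 to 0.407 in WT control, 0.341 to 0.410 in WT with TGF-β2, 0.367 to 0.403 in Nox4 KO control and 0.369 to 0.465 in Nox4 KO with TGF-β2.

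**Figure D3:**
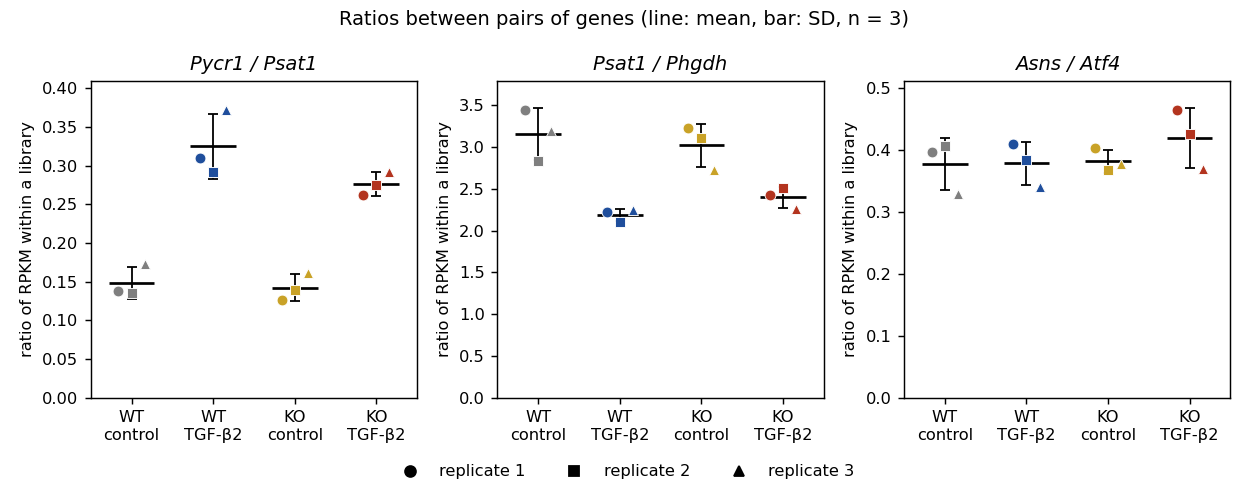
Ratios of RPKM between 2 genes of the same library (vertical axes, from 0) in the 4 groups (horizontal axes), with points for libraries, shapes for replicate numbers, lines for means and bars for the SD of 3 libraries. Pycr1 to Psat1 was at most 0.172 in control libraries and at least 0.262 in stimulated ones, while Asns to Atf4 overlapped between all groups.

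Loss of Nox4 was compared next, since the study asked what Nox4 adds to the response of fibroblasts. In control cells 0 of the 9 members differed between Nox4 KO and WT by edgeR's test, where 0% of 10767 genes did, 0 members had an unadjusted p under 0.05 (5.54% of all genes did) and DESeq2 called 0 members. All 9 log2 fold changes were positive and small, with a median of 0.09 and the largest at Phgdh, 0.21 (95% interval -0.17 to 0.60). Without WT control replicate 3, 6 of the 9 were positive, with a median of 0.033. Without Nox4 KO control replicate 1, 7 were, with a median of 0.027. Pycr1 was the 1 member whose Nox4 KO control libraries were all higher than the WT ones, which 10.9% of all genes were, by 0.12 (95% interval -0.03 to 0.26). No member had all Nox4 KO control libraries lower, as 2.74% of all genes had.

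After TGF-β2, 0 of the 9 differed between genotypes by edgeR's test (0% of 10439 genes), 0 had an unadjusted p under 0.05 (3.22% of all genes) and DESeq2 called 0. The libraries of both genotypes overlapped for all 9 members, where 10.1% of all genes did not overlap. The furthest from 0 was Atf4, at -0.22 (SE 0.11, 95% interval -0.49 to 0.06), and it was -0.12 without the second stimulated WT library. The other 8 lay between -0.07 and 0.14, with intervals that reached from -0.49 at Phgdh to 0.60 at Psat1, so that differences of this size could not be told from none with 3 libraries a group. Of the 9 values 3 were above 0, and 8 were when that library was left out.

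The difference between both responses, tested as an interaction over all 12 libraries, was called for 0 of the 9 members by edgeR (0% of 10890 genes), with 0 members at an unadjusted p under 0.05 (2.66% of all genes) and 0 by DESeq2. For 8 of the 9 the fitted difference was below 0, that is, lower in Nox4 KO, with a median of -0.13. Atf4 had the largest difference, -0.23 (SE 0.13, 95% interval -0.52 to 0.06), followed by Phgdh at -0.21 (95% interval -0.83 to 0.41) and Pycr1 at -0.18 (95% interval -0.48 to 0.11). Psat1 differed by -0.02 between the genotypes (95% interval -0.60 to 0.55). Without the second stimulated WT library the differences were -0.13 at Atf4, 0.01 at Phgdh and -0.08 at Pycr1, with 4 of 9 above 0 and a median of -0.0039.

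**Figure D4:**
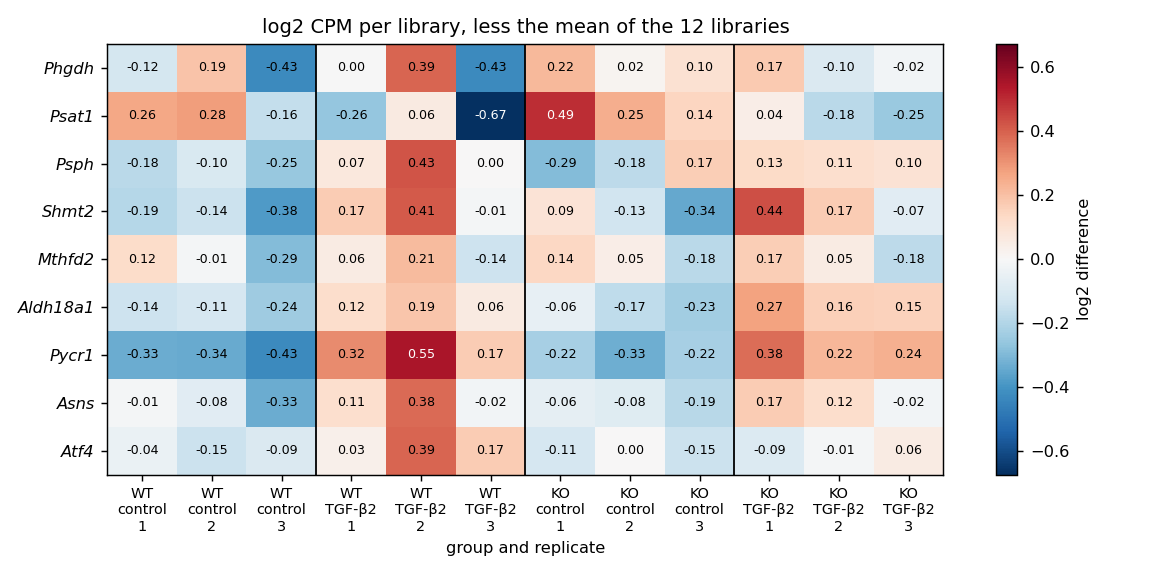
Log2 CPM (counts scaled to a common library size, after TMM normalization) of the 9 genes (rows) in the 12 libraries (columns), each less the mean of the 12, with red for higher and blue for lower and the value in each cell. Of the stimulated WT libraries, replicate 2 is the highest of the 3 in all 9 rows, by up to 0.55 above the mean at Pycr1.

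Across the 12 libraries the members differed among themselves in pattern. Each was set against the mean of the 8 enzyme genes by the root mean square of the differences in centred log2 CPM, where each enzyme is itself a part of that mean. Asns followed that mean most closely, at 0.062, and Mthfd2 (0.0998), Aldh18a1 (0.110), Shmt2 (0.125), Psph (0.146) and Phgdh (0.152) came next. Atf4 was at 0.157, while Pycr1 (0.229) and Psat1 (0.321) were the furthest, one through its rise and the other through its fall with TGF-β2. The median over 10881 other genes was 0.265, a value that says little of likeness, since the enzyme mean itself varied by only -0.31 to 0.33 between libraries.

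The 5 other genes most like the enzyme mean were Ankrd54 (0.0514), Ppp1ca (0.0520), Bub3 (0.0552), Hnrnpl (0.0553) and Ybx1 (0.0555). Ppp1ca encodes a catalytic subunit of protein phosphatase 1, Bub3 a spindle checkpoint protein, and Hnrnpl and Ybx1 RNA-binding proteins. None of the 5 passed in either genotype, with log2 fold changes from 0.16 to 0.32 in WT and from 0.03 to 0.13 in Nox4 KO. All 5 had their highest centred value of the 12 libraries in the second stimulated WT library, as the enzyme mean did.

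The 5 wider gene lists of the same biology were read in the same fits, with counts and medians given in place of a test of each list. Over all genes tested, 10.6% passed as higher and 12.3% as lower in WT, 15.2% and 15% in Nox4 KO, and 25.1% and 28.8% there with the replicate block. The tRNA synthetases, which charge tRNAs with amino acids and of which many are known ATF4 targets, had no gene that passed as lower. In WT 4 of 20 passed as higher and 0 as lower, with a median log2 fold change of 0.28, and in Nox4 KO 10 passed as higher and 0 as lower, with a median of 0.22. With the replicate block, 17 passed as higher in Nox4 KO. Tars rose by 0.40 (SE 0.08, adjusted p = 0.0144 in edgeR) in WT and 0.38 (SE 0.09, adjusted p = 0.0270 in edgeR) in Nox4 KO. Kars rose by 0.40 and 0.32, and Farsb by 0.38 and 0.25. The counts moved with single libraries. In WT, 0 passed without control replicate 1 or stimulated replicate 1 and 8 without stimulated replicate 2. In Nox4 KO, 1 passed without stimulated replicate 2 and 12 without stimulated replicate 3. With library size alone as the scaling, 1 passed in WT and 4 in Nox4 KO, while DESeq2 called 12 and 15 and the fit on all 12 libraries called 14 and 14.

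Genes around ATF4 and its stress response were split. Of 24 in the count table, all tested, 2 passed as higher and 4 as lower in WT (median 0.04), and 6 and 7 in Nox4 KO (median 0.08), or 10 and 9 with the replicate block. In WT 7 passed as lower without stimulated replicate 2 and 1 without stimulated replicate 1 or any 1 of the controls, and in Nox4 KO 2 passed as higher without control replicate 1 or 2 and 4 as lower without stimulated replicate 2. Fgf21, a hormone gene induced by ATF4, rose the most, by 3.26 on the log2 scale in WT (SE 0.28, adjusted p = 0.000877 in edgeR) and 2.98 in Nox4 KO (SE 0.60, adjusted p = 0.0163 in edgeR), from 0.329 to 0.469 RPKM in WT control to 3.11 to 4.85 RPKM. Eif2s1, the eIF2 subunit whose phosphorylation allows ATF4 to be made, rose by 0.53 and 0.50. Gdf15, a secreted stress factor, fell by 1.13 in WT and by 1.66 in Nox4 KO on the log2 scale. Vldlr, a lipoprotein receptor, fell by 0.97 and by 0.81, and Stc2, a secreted glycoprotein, fell by 0.60 and by 1.11. The members that fell here are described as ATF4 targets in other settings, as Fgf21 is, so the list did not move in 1 direction.

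The remaining enzymes of serine, glycine and one-carbon metabolism had 19 of 22 genes tested. In WT 2 passed as higher and 2 as lower (median -0.08), and in Nox4 KO 6 and 2 (median 0.02), or 7 and 5 with the replicate block. The count higher in WT was 0 without control replicate 1 and 5 without stimulated replicate 2, and in Nox4 KO without stimulated replicate 2 it was 1, with 0 lower. Gcsh, a carrier protein of the glycine cleavage system, rose by 0.67 (SE 0.14, adjusted p = 0.0158 in edgeR) in WT and 0.39 (SE 0.08, adjusted p = 0.0180 in edgeR) in Nox4 KO. Mthfd1, the cytosolic trifunctional folate enzyme, rose by 0.39 and 0.26. Aldh1l1, which removes one-carbon units from the cytosolic folate pool, fell by 2.31 in WT (SE 0.22, adjusted p = 0.00116 in edgeR) and by 2.00 in Nox4 KO (SE 0.34, adjusted p = 0.0103 in edgeR), from a mean of 3.04 RPKM to 0.596 RPKM in WT. Srr, which turns L-serine into D-serine, fell by 0.96 and by 0.65.

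The wider proline, glutamate and aspartate list had 16 of 18 genes tested, with 4 higher and 2 lower in WT (median -0.0017), 2 and 3 in Nox4 KO (median 0.07), and 5 and 6 there with the replicate block. In WT 1 passed as higher without stimulated replicate 1 or any 1 of the controls, and 5 as lower without stimulated replicate 2. In Nox4 KO without stimulated replicate 2, 1 passed as higher and 0 as lower. Ass1, which joins aspartate to citrulline, rose by 1.25 (SE 0.12, adjusted p = 0.00118 in edgeR) in WT and 1.15 (SE 0.17, adjusted p = 0.00658 in edgeR) in Nox4 KO, and its WT libraries went from 16.8, 19.4 and 19.7 RPKM to 41.7, 49.3 and 38.0 RPKM. Pepd, which frees proline from dipeptides, rose by 0.38 and 0.31. Glul, the glutamine synthetase, fell by 0.65 in both genotypes, and Aldh4a1, which oxidises pyrroline-5-carboxylate back to glutamate, fell by 0.55 and by 0.63. Pycr1 and Pepd thus rose and Aldh4a1 fell in both genotypes.

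Amino acid transporters, 24 of 27 tested, had 3 higher and 4 lower in WT (median 0.00072) and 4 and 6 in Nox4 KO (median 0.13), or 7 and 7 with the replicate block. Without 1 library the counts were 1 (without stimulated replicate 1 or any 1 of the controls) to 4 higher and 2 (without stimulated replicate 1) to 6 lower in WT, and in Nox4 KO without stimulated replicate 2 they were 2 and 4. Slc7a7, a cationic amino acid exchanger subunit, rose by 1.83 in WT (SE 0.17, adjusted p = 0.00106 in edgeR) and 1.81 in Nox4 KO (SE 0.11, adjusted p = 0.00109 in edgeR), and Slc7a6, its relative, by 0.36 and 0.50. Slc1a3, a glutamate and aspartate carrier, fell by 3.31 and by 2.39, from 1.47 to 3.84 RPKM in WT control to 0.111 to 0.295 RPKM with TGF-β2. Slc7a8, a neutral amino acid exchanger, fell by 2.67 and by 2.64, and Slc1a5, the glutamine carrier, fell by 0.75 and by 0.87. In none of the 5 lists did a gene pass between genotypes in either condition or in the interaction by edgeR, as was so for 0% of all genes in each of these comparisons.

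**Figure D5:**
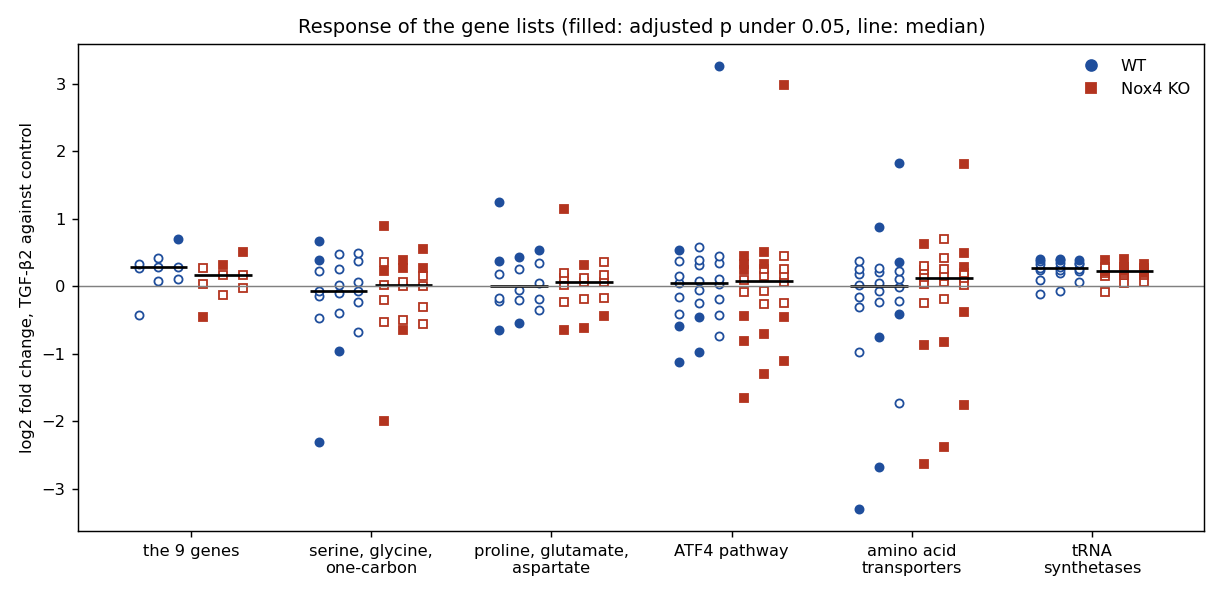
Log2 fold changes of TGF-β2 against control (vertical axis) for the tested genes of the 9-gene group and of the 5 wider lists (horizontal axis), WT as circles and Nox4 KO as squares, filled where the adjusted p-value was under 0.05, with a line at each median. The tRNA synthetases stay within a narrow band with medians of 0.28 and 0.22, while the ATF4 and transporter lists spread from Fgf21 at 3.26 to Slc1a3 at -3.31 in WT.

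Acta2, the smooth muscle actin of myofibroblasts, had log2 fold changes of 0.13 and -0.06 and did not pass in either.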

How the data were processed

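RNA of 12 libraries, 3 in each of the 4 groups named by the sample labels, was sequenced as single-end reads. STAR 2.4 was the authors' aligner, with GRCm38 as genome. Reads with more than 1 location had been dropped, and featureCounts 1.4.6 counted the rest over exons of protein-coding isoforms, merged per gene. The deposited values are raw counts per gene, without normalization. Symbols, positions and exon lengths came from GENCODE M21 by Ensembl identifier (21556 of 21556 matched), with protein-coding transcripts for 21099 genes. RPKM used these lengths and total counts, which were 35118344 to 43796260 per library. Reads dropped for mapping more than once lower genes with near-identical copies. How replicates relate to animals or cultures is not stated, so p-values measure the spread between these samples only, which may be technical.

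Each comparison was fitted on its own libraries with edgeR 4.0.16 (R 4.3.3), after TMM normalization, with the quasi-likelihood test and Benjamini-Hochberg adjustment over all genes with a mean of at least 1 RPKM in at least 1 group. The interaction used all 12 libraries. A gene passed at an adjusted p-value under 0.05. Standard errors came from the F statistic, and 95% intervals from the t distribution with the fit's degrees of freedom. The fit was tested on simulated data.

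Same-numbered Nox4 KO libraries deviated together from their group means (r = 0.771, 0.685 and 0.748 over 10890 genes), so the numbers were taken to pair them. The pairing comes from this check and is not stated by the labels. In WT, r was 0.0731, 0.437 and 0.532, and numbers were not taken to pair samples.

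The alternatives were RLE size factors, library size alone, DESeq2 1.42.0, 2 other filters, the replicate block, all 12 libraries in the fit, other bases for RPKM, and leaving out each library. From each wider list up to 3 genes with the highest and 3 with the lowest mean response were named, among those that passed in the same direction in both genotypes, with the 9 members, the 5 genes most like the enzyme mean, Nox4 and Acta2. Another gene named by this rule is not reported here. The members and lists were chosen with earlier results of these data known. Eif2ak1, also on the ATF4 list, was not used here.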

Additional observations from a re-analysis of the deposited data

How the results depend on the processing

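Of 630 refitted log2 fold changes of the 9 genes, 564 kept their direction and side of the threshold. Pycr1 passed in both genotypes under all alternatives. The count of members higher in WT, 1, was 3 with DESeq2, 2 with the replicate block, 2 with all 12 libraries and 1 to 2 without a library (2 without stimulated replicate 3), and the count lower went from 0 to 1 (Psat1) with the block. In Nox4 KO the count higher, 2, was 4 with the replicate block and 1 to 2 without a library, and the count lower was 0 with all 12 libraries and 0 to 1 without a library. The replicate block changed no other call of a member. Its calls over all genes in Nox4 KO were 2714 higher and 3118 lower, against 1644 and 1626 without it. Of 396 refits between genotypes or for the interaction 0 passed in edgeR or DESeq2, with a lowest adjusted p of 0.392. DESeq2 called 9 of all genes higher and 19 lower in Nox4 KO control cells, 8 and 8 after TGF-β2, and 0 and 6 in the interaction, where edgeR called 0. Leaving out 1 library moved the calls over all genes to 523 to 1649 higher and 742 to 1757 lower in WT, and to 583 to 1718 and 574 to 1795 in Nox4 KO.

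Signs turned at values near 0, and causes were not tested. In Nox4 KO, Atf4 was -0.055 with library size only, and Mthfd2 was 0.0050 without a filter, 0.0026 with filterByExpr and 0.013 with all 12 libraries. Between genotypes after TGF-β2, Shmt2 was 0.0010 with RLE size factors and 0.0010 with DESeq2, and Phgdh was -0.024 with library size only, -0.014 without a filter, -0.00951 with filterByExpr and -0.010 with all 12 libraries. Aldh18a1 was -0.0022 in the interaction with library size only.

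Leaving out 1 library turned further signs. With TGF-β2 in WT, Phgdh ranged from -0.14 to 0.29 and Mthfd2 from -0.023 to 0.17, and in Nox4 KO Atf4 ranged from -0.0038 to 0.078 and Mthfd2 from -0.11 to 0.067. Between genotypes in control, the ranges were -0.034 to 0.058 for Aldh18a1, -0.061 to 0.099 for Asns, -0.030 to 0.045 for Atf4, -0.047 to 0.16 for Mthfd2 and -0.052 to 0.18 for Psph. After TGF-β2 they were -0.15 to 0.048 for Asns, -0.11 to 0.068 for Mthfd2, -0.18 to 0.23 for Phgdh, -0.023 to 0.33 for Psat1, -0.14 to 0.082 for Psph, -0.15 to 0.041 for Pycr1 and -0.15 to 0.12 for Shmt2. In the interaction they were -0.00039 to 0.11 for Aldh18a1, -0.19 to 0.014 for Asns, -0.20 to 0.0027 for Mthfd2, -0.39 to 0.012 for Phgdh and -0.19 to 0.16 for Psat1.

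With 3 libraries a group, intervals of member fold changes between genotypes reached from -0.49 to 0.60 on the log2 scale. With the merged exons of all transcripts as length, 31 of 36 group levels moved by more than 1 SD, so the order of members by RPKM rests on the transcripts counted.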
